A study of Mus musculus with 48 samples.

Results

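The major urinary protein (Mup) genes in this liver study were the rows of the count table named Mup3, Mup4, Mup5, Mup20 and Mup21, 5 of 23930 genes. They were chosen by symbol, with no measured value in the rule. Of the 5, 4 passed the filter on low counts and were tested. Mup5 did not pass. A sixth row of the family, Mup6, was not among the 5 and its values are given beside theirs. The mice had received LX-A1656, LX-A2003 or LX-A3928, which are modified gapmer antisense oligonucleotides directed against Scarb1, or phosphate-buffered saline (PBS). A gapmer pairs with its target RNA and recruits RNase H to cut it, and Scarb1 encodes a receptor that takes up cholesterol from HDL. Livers were taken 24 h, 72 h and 168 h (days 1, 3 and 7) after the first administration, with 4 replicates in each of the 12 groups and 48 libraries in all. The sources used here do not state doses, later administrations, oligonucleotide sequences, strain, sex or age. Whether each replicate is its own animal is also not stated. The p-values rest on the spread between samples, which may be technical. Where 3 values are given together they stand in the order LX-A1656, LX-A2003, LX-A3928.

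Major urinary proteins are small secreted lipocalins, barrel-shaped carriers that bind volatile pheromones and release them slowly from urine marks. Hepatocytes make most of them and the kidney passes them into the urine, and they are higher in male than in female mice. Their transcription in liver depends on pulsatile growth hormone acting through its receptor and STAT5, and also responds to glucocorticoids and to energy state. Mup20 encodes darcin, a male pheromone protein that females learn to prefer. Mup4 and Mup5 have been described mainly in secretory glands outside the liver.

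Libraries were made with an amplicon kit that reads 1 designed fragment of each gene, and the sources used here do not state where the fragments lie. Close paralogs can share reads, and the assignment of reads between Mup genes could not be checked. In the GENCODE vM21 annotation of GRCm38 the family lies on chromosome 4, chr4:59956804-62150863, a span of 2.19 Mb with 22 coding genes and 26 pseudogenes. The count table had rows for 6 of the coding genes. Mup4 lies at chr4:59956804-59960710, Mup5 at chr4:61831319-61835233, Mup20 at chr4:62050234-62054158, Mup3 at chr4:62083476-62087342 and Mup21 at chr4:62147932-62150863, all on the minus strand. Likeness in sequence limits how far the counts of the members can be taken as separate. The stretch of 60 coding bases below is the one, without gaps, where the members together differ most from Mup3. Over the whole coding sequence they are more alike than in this stretch. It is read 5′ to 3′ from the GENCODE vM21 transcripts, capitals mark bases that differ from Mup3, and 38 of the 60 bases are the same in all 5.
Mup3: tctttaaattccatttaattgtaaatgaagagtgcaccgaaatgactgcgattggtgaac
Mup21: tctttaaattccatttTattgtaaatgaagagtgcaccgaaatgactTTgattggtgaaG
Mup20: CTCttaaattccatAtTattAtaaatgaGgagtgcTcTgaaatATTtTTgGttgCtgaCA
Mup4: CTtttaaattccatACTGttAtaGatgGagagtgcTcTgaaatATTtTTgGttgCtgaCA
Mup5: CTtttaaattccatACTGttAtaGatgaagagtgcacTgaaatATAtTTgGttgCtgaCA

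Within this stretch Mup21 differed from Mup3 at 4 bases, Mup20 and Mup5 each at 18 and Mup4 at 20. Over the whole coding sequence Mup3 and Mup21 were 94.7% identical, Mup3 and Mup20 86.6%, Mup3 and Mup4 83.5%, and Mup20 and Mup21 87.5%. A window of 100 bases moved along the coding sequence of Mup3 was found unchanged in Mup21 at 26 of 453 positions (5.7%). For Mup20, 319 of 444 such windows (71.8%) also occur in the pseudogene Mup-ps19, and none occur in another Mup gene of the table. For Mup4 and Mup5 no window occurs in another gene.

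Library totals ran from 8140065 to 17191129 counts, with a median of 10659453. Levels are in CPM, counts relative to the library total corrected with TMM factors. Since each gene has its own amplicon, levels compare a gene between libraries, not genes with each other. A gene is called higher or lower at an adjusted p under 0.05 in the quasi-likelihood test of edgeR, the adjustment (Benjamini-Hochberg) covering all 12672 tested genes. Changes are log2 differences ± SE of group means, with 4 libraries a group. Scarb1 was at 236 to 410 CPM in the 12 PBS libraries and at 3.36 to 56.8 CPM in the 36 oligonucleotide libraries. All 9 hepatocyte markers in the table were detected in every group, and their summed level in PBS livers at 168 h was 67850 to 85297 CPM. Xist was at 0 to 0.414 CPM and the Y-linked Ddx3y at 49.5 to 547 CPM in the 48 libraries.

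Replicate 3 of LX-A3928 at 168 h stood apart from its group. Its 10 most abundant genes held 18.2% of counts, against 10.5% to 11.9% in the other 3 libraries of the group, and its TMM factor was 0.921 against 1.15 to 1.21. Each tested Mup gene was 3.25 to 5.00 times as high in it as the mean of the other 3 libraries. Its hepatocyte markers summed to 87442 CPM against 32399 to 44254 in the other 3, and its neutrophil markers to 43.2 CPM against 7.35 to 12.3. The part of these differences in the results was not tested. Mup differences that rest on this library are given with and without it. Counts for gene lists at 168 h include it unless stated.

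In PBS livers Mup3 ran from 12291 to 19435 CPM over the 12 libraries, with a median of 13981. Mup20 ran from 1081 to 1635 CPM with a median of 1291. Mup21 ran from 40.2 to 213 CPM with a median of 145. Mup4 ran from 8.36 to 21.7 CPM with a median of 12.5. The coefficient of variation was 13.4% for Mup3 and 12.0% for Mup20, against 32.2% for Mup21 and 29.3% for Mup4. Mup5 had at most 3 counts in any library. Between PBS livers of different times none of the 4 tested members was called by edgeR or by the DESeq2 Wald test, and none had an unadjusted p under 0.05. The share of all genes called was 0.0789% for 72 h against 24 h, 1.03% for 168 h against 24 h and 0.0316% for 168 h against 72 h.

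**Figure D1:**
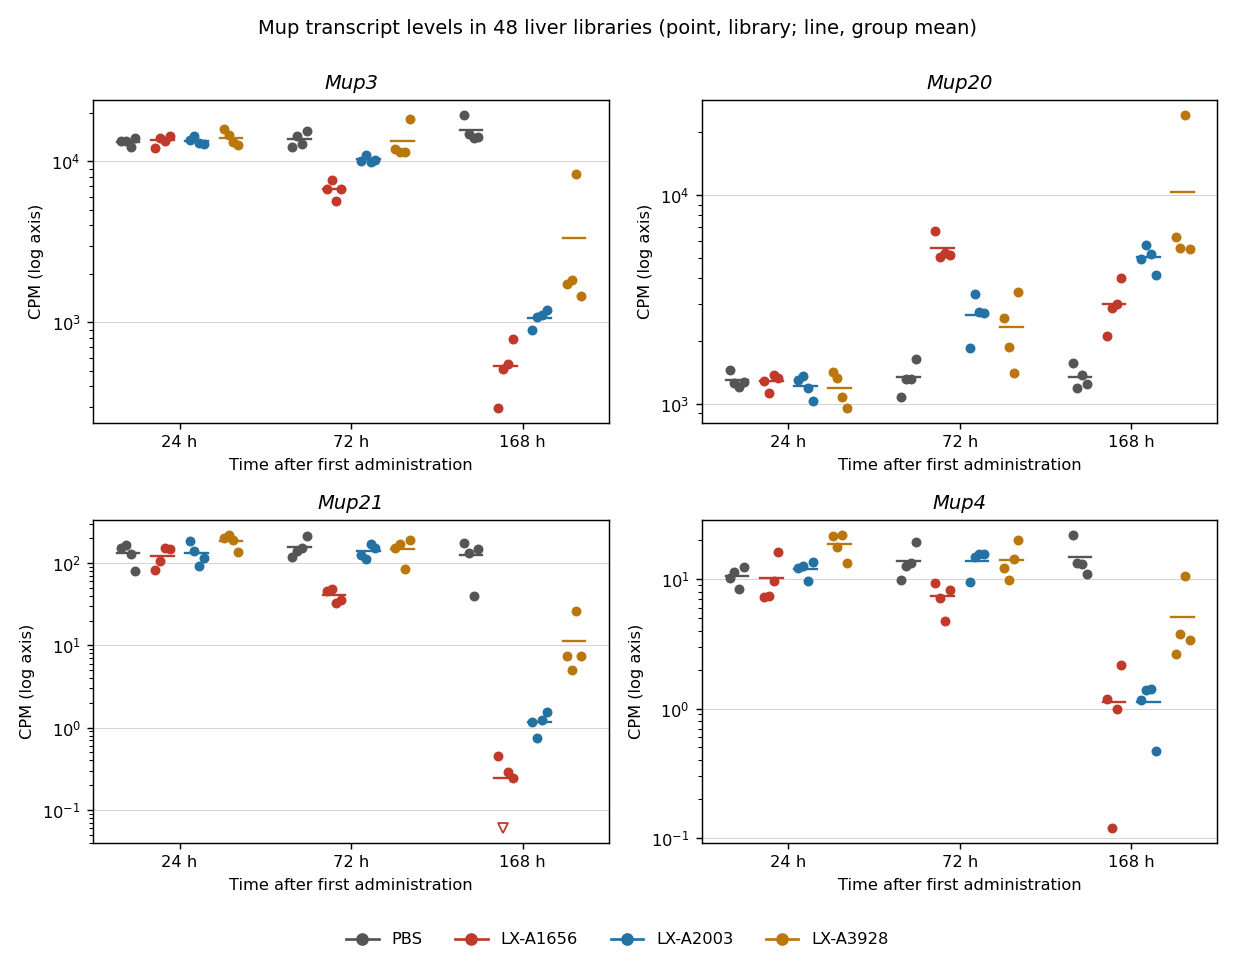
Levels of Mup3, Mup20, Mup21 and Mup4 in each of the 48 libraries, in CPM on a log axis, by time and treatment. A point is a library, a line the mean of 4 and an open triangle a library with 0 counts drawn at a fixed height. At 168 h Mup3, Mup21 and Mup4 lie below the 4 PBS libraries of 168 h and Mup20 lies above them with each oligonucleotide.

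By 168 h the 3 oligonucleotides had moved the members in 2 directions. Mup3, Mup21 and Mup4 fell with each of them, to between 0.195% and 34.5% of the PBS mean, while Mup20 rose 2.24-fold to 7.75-fold. The upper end of both ranges rested on replicate 3 of LX-A3928: without it Mup4 was at 22.1% of PBS and Mup20 at 4.32-fold with that oligonucleotide. At 24 h none of the 4 tested members was called with any oligonucleotide, and at 72 h the calls were mostly those of LX-A1656. All comparisons at one time share the same 4 PBS libraries.

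At 24 h edgeR called 0 of 4 members with each oligonucleotide, and so did the DESeq2 Wald test. The share of all genes called was 2.86%, 2.09% and 3.26%. At an unadjusted p under 0.05 the count was 0, 0 and 1 member, the 1 being Mup4 with LX-A3928. At 72 h LX-A1656 had 1 member higher and 3 lower, beside 24.7% of all genes higher and 23.4% lower. LX-A2003 had 1 higher and 0 lower at 72 h, beside 5.48% and 6.55% of all genes. LX-A3928 had 0 of 4 called at 72 h, beside 9.80% of all genes, with 1 at an unadjusted p under 0.05 and 1 called by DESeq2, in each case Mup20. At 168 h each oligonucleotide had 1 member higher and 3 lower. Beside this, 34.1% of all genes were higher and 29.7% lower with LX-A1656, 29.8% and 25.3% with LX-A2003, and 27.3% and 20.7% with LX-A3928. In both directions together 63.9%, 55.1% and 48.0% of all genes were called at 168 h, so a call by itself sets the members apart little.

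**Figure D2:**
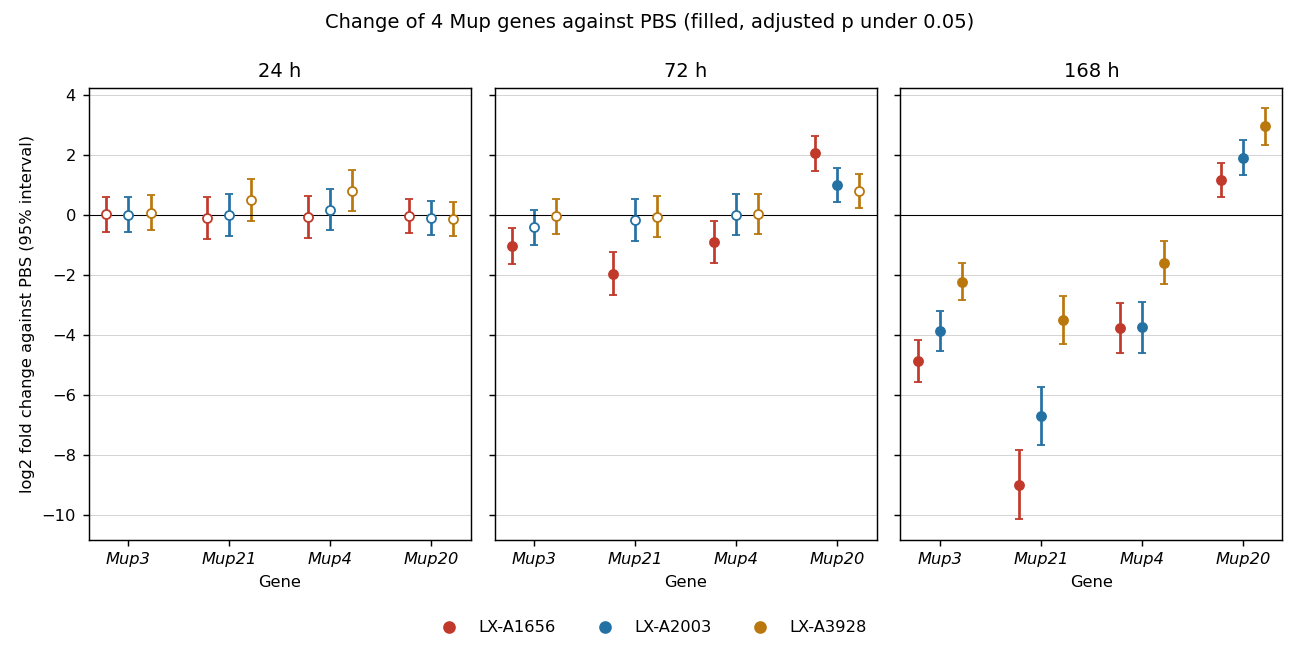
Log2 fold changes against PBS of Mup3, Mup21, Mup4 and Mup20 at 24 h, 72 h and 168 h, with 95% intervals; filled points have an adjusted p under 0.05. No point is filled at 24 h, and all 12 are filled at 168 h, with Mup20 above 0 and the other 3 genes below it.

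Mup3 is a liver member of the family. In PBS livers at 168 h its 4 libraries were at 19435, 14879.9, 14016 and 14183 CPM, a mean of 15629 ± 2565 (SD, n = 4). With LX-A1656 they were at 294, 514, 548 and 789 CPM, and with LX-A2003 at 895, 1082, 1112 and 1192 CPM. With LX-A3928 they were at 1720, 1843, 8367 and 1457 CPM. Every treated library was below every PBS library, and the 8367 CPM belongs to the library that stood apart. Groups did not overlap for 54.3%, 43.8% and 30.9% of all genes in the 3 comparisons. Mup3 fell by 4.87 ± 0.340 with LX-A1656 (adjusted p = 1.26e-16), to 3.43% of PBS. It fell by 3.87 ± 0.324 with LX-A2003 (adjusted p = 9.59e-14), to 6.85% of PBS. With LX-A3928 it fell by 2.22 ± 0.302 (adjusted p = 4.77e-08), and by 3.22 ± 0.204 without replicate 3 (adjusted p = 1.87e-17). The median change of all tested genes at 168 h was 0.10, 0.04 and 0.08.

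At 72 h Mup3 was at 12291, 14452, 12801 and 15349 CPM in PBS livers and at 6694, 7713, 5662 and 6732 CPM with LX-A1656. It fell by 1.03 ± 0.292 there (adjusted p = 0.00297), to 48.8% of PBS, with no overlap, as for 46.6% of all genes. With LX-A2003 it was at 10060.3, 11025, 9975 and 10169 CPM. These 4 libraries were also below all 4 PBS libraries, but the difference of -0.41 ± 0.289 missed the threshold (adjusted p = 0.430), and groups did not overlap for 22.6% of all genes. When the test used only the 8 libraries compared, this difference passed (adjusted p = 0.00408). With LX-A3928 the libraries were at 11970.2, 11465, 11468 and 18444 CPM and overlapped PBS, a difference of -0.04. At 24 h the differences were 0.02, 0.02 and 0.08.

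Mup20, which encodes darcin, moved the other way. In PBS livers at 168 h it was at 1571, 1191, 1367 and 1235 CPM. With LX-A1656 it was at 2098, 2875, 3006 and 4009 CPM, with LX-A2003 at 4951, 5772, 5221 and 4136 CPM, and with LX-A3928 at 6301, 5582, 24214 and 5493 CPM. All 12 treated libraries were above all 4 PBS libraries, where groups did not overlap for 54.3%, 43.8% and 30.9% of all genes. Mup20 rose by 1.16 ± 0.285 with LX-A1656 (2.24-fold, adjusted p = 0.000458) and by 1.90 ± 0.291 with LX-A2003 (3.74-fold, adjusted p = 3.8e-07). With LX-A3928 it rose by 2.96 ± 0.302 (adjusted p = 4.67e-11), a mean of 10398 ± 9218 CPM (SD, n = 4) and 7.75-fold. Without replicate 3 the mean was 5792 ± 443 CPM (SD, n = 3) and the rise 2.11 ± 0.204 (adjusted p = 6.75e-12).

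At 72 h Mup20 was at 1081, 1317, 1308 and 1635 CPM in PBS livers and at 6714, 5051, 5267 and 5174 CPM with LX-A1656. It rose by 2.06 ± 0.292 (adjusted p = 1.06e-07), or 4.16-fold. With LX-A2003 it was at 1839, 3347, 2758 and 2720 CPM, every library above PBS, where groups did not overlap for 22.6% of all genes. It rose by 1.00 ± 0.284 (adjusted p = 0.0129). This call was lost without PBS 72 h replicate 1 (adjusted p = 0.0540) or without LX-A2003 72 h replicate 2 (adjusted p = 0.0567). With LX-A3928 it was at 2562, 1869, 1408 and 3443 CPM, of which the 1408 CPM lay within the PBS range. The difference of 0.80 ± 0.283 missed the threshold (adjusted p = 0.0653), and passed it without LX-A3928 72 h replicate 3 (adjusted p = 0.0286) and in the DESeq2 Wald test (adjusted p = 0.0493). It also passed with only the 8 libraries compared (adjusted p = 0.0436). In 12 of 15 alternatives it still missed the threshold, with adjusted p up to 0.311. With 1 library left out the difference ran from 0.54 to 0.97. At 24 h the differences were -0.02, -0.09 and -0.12.

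From 24 h to 168 h Mup20 rose at both steps with LX-A2003 and LX-A3928, while with LX-A1656 it rose and then fell. The difference between these courses was not tested. With LX-A1656 it rose from 24 h to 72 h by 2.12 ± 0.293 (adjusted p = 8e-08) and then fell from 72 h to 168 h by 0.89 ± 0.283 (adjusted p = 0.00878), with no overlap between the groups at either step, as for 42.7% and 39.6% of all genes. With LX-A2003 it rose at both steps, by 1.13 ± 0.285 (adjusted p = 0.00898) and by 0.91 ± 0.283 (adjusted p = 0.00648). With LX-A3928 it rose by 0.96 ± 0.284 at the first step (adjusted p = 0.0453), where the groups overlapped. This call was lost without any 1 of the 4 libraries of 24 h, or without replicate 1 or 4 of 72 h (adjusted p = 0.0618 to 0.303). At the second step it rose by 2.16 ± 0.293 (adjusted p = 6.74e-08), or by 1.32 ± 0.201 without replicate 3 of 168 h.

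Mup21, the member nearest to Mup3 in coding sequence, had the largest fall of the 4 at 168 h with each oligonucleotide. In PBS livers at 168 h it was at 177, 134, 40.2 and 150 CPM, or 299 to 1408 counts a library. With LX-A1656 the 4 libraries held 6, 0, 5 and 3 counts, which is at most 0.445 CPM. The library with 0 counts allows up to 3 of its 13041216 counts, counting error only. With LX-A2003 they held 17, 8, 14 and 23 counts, 0.743 to 1.55 CPM. With LX-A3928 they held 98, 66, 212 and 99 counts, 4.98 to 25.8 CPM. All 12 libraries were below the lowest PBS library, where groups did not overlap for 54.3%, 43.8% and 30.9% of all genes. Mup21 fell by 8.99 ± 0.572 with LX-A1656 (adjusted p = 1.92e-17), to 0.195% of PBS. It fell by 6.70 ± 0.480 with LX-A2003 (adjusted p = 2.33e-15), to 0.940% of PBS. With LX-A3928 it fell by 3.50 ± 0.389 (adjusted p = 6.04e-10), and by 4.24 ± 0.387 without replicate 3. Among the 12672 genes tested its change was the 6th lowest with LX-A1656 and with LX-A2003 and the 67th lowest with LX-A3928, while that of Mup3 was the 83rd, 71st and 220th lowest.

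At 72 h Mup21 was at 120.0, 141, 152 and 213 CPM in PBS livers and at 45.5, 48.5, 32.6 and 35.3 CPM with LX-A1656, a fall of 1.95 ± 0.357 (adjusted p = 1.42e-05). With LX-A2003 and LX-A3928 the means at 72 h were 140 ± 24.9 and 151 ± 46.4 CPM (SD, n = 4), and the differences of -0.16 ± 0.342 and -0.06 ± 0.342 from PBS missed the threshold. From 72 h to 168 h Mup21 then fell by 7.36 ± 0.566 with LX-A1656, by 6.85 ± 0.482 with LX-A2003 and by 3.77 ± 0.392 with LX-A3928, or by 4.51 ± 0.391 without replicate 3. At 24 h its differences were -0.11, 0.01 and 0.50, none of them called. Only 3 of the 12672 genes had a lower change than Mup21 at this step with LX-A1656, and 1 with LX-A2003.

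Mup4, a member described mainly outside the liver, had few counts in all groups. In PBS livers at 168 h it was at 21.7, 13.4, 13.1 and 10.9 CPM. With LX-A1656 it was at 1.19, 0.119, 0.993 and 2.17 CPM, which is 16, 2, 17 and 27 counts. With LX-A2003 it was at 1.17, 1.39, 1.43 and 0.470 CPM, and with LX-A3928 at 2.65, 3.77, 10.6 and 3.36 CPM. All 12 treated libraries were below all 4 PBS libraries, narrowly so for the 10.6 CPM of LX-A3928 replicate 3. Groups did not overlap for 54.3%, 43.8% and 30.9% of all genes. Mup4 fell by 3.77 ± 0.410 with LX-A1656 (adjusted p = 7.88e-11) and by 3.75 ± 0.416 with LX-A2003 (adjusted p = 2.45e-10). With LX-A3928 it fell by 1.59 ± 0.357 (adjusted p = 0.000271), and by 2.18 ± 0.355 without replicate 3.

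At 72 h Mup4 fell by 0.90 ± 0.344 with LX-A1656 (adjusted p = 0.0271), from 13.7 ± 3.90 to 7.35 ± 1.95 CPM (SD, n = 4). That call was lost without PBS 72 h replicate 4 (adjusted p = 0.122) or without LX-A1656 72 h replicate 2 or 3 (adjusted p = 0.0502 and 0.102). With LX-A2003 and LX-A3928 the differences were 0.01 and 0.03. At 24 h with LX-A3928 the 4 libraries were at 21.5, 17.8, 21.9 and 13.3 CPM, all above the 10.2, 11.4, 8.36 and 12.3 CPM of PBS. The difference of 0.82 ± 0.337 missed the threshold (adjusted p = 0.214), and 16.7% of all genes had groups that did not overlap. It passed in the test of only the 8 libraries compared (adjusted p = 0.00470).

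Mup5 had 0 to 3 counts in every library. The 4 libraries of a group held 1, 4 and 2 counts together in PBS livers at 24 h, 72 h and 168 h. With LX-A1656 they held 1, 0 and 0 counts, with LX-A2003 2, 3 and 0, and with LX-A3928 0, 1 and 0. A group total of 0 allows up to 3 counts over the group, or 0.0502 to 0.0641 CPM in the 5 groups at 0, so no change of Mup5 was detectable at this depth and no fold is given.

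Mup6, the other Mup row, lies next to Mup4 on the opposite strand, and no window of 100 coding bases of either occurs in the other. Its level was 42.3, 25.3, 26.2 and 21.3 CPM in PBS livers at 168 h. It fell by 2.54 ± 0.328 with LX-A1656 and by 2.34 ± 0.326 with LX-A2003, to means of 4.95 and 5.69 CPM. With LX-A3928 it fell by 0.93 ± 0.308 (adjusted p = 0.0111), with 35.9 CPM in replicate 3 within the PBS range, and by 1.75 ± 0.255 without that library. The LX-A3928 call was lost in the test of only the 8 libraries (adjusted p = 0.196) and without PBS 168 h replicate 1 or LX-A3928 168 h replicate 1, 2 or 4 (adjusted p = 0.0526 to 0.0772). At 24 h with LX-A3928 Mup6 was at 32.3 to 44.4 CPM against 18.8 to 26.7 in PBS, a difference of 0.78 ± 0.302 that missed the threshold (adjusted p = 0.167) and passed in the test of only the 8 libraries (adjusted p = 0.00171).

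The opposite movement of Mup20 and Mup3 can be read within each library as the ratio of their counts, which does not depend on how libraries are scaled. In the 12 PBS libraries there were 0.0800 to 0.108 Mup20 counts for each Mup3 count, and in all 16 libraries of 24 h 0.0756 to 0.108. At 72 h the ratio was 1.00, 0.655, 0.930 and 0.769 with LX-A1656, 0.183, 0.304, 0.277 and 0.268 with LX-A2003, and 0.214, 0.163, 0.123 and 0.187 with LX-A3928. All 12 values were above every PBS value, those of LX-A3928 least so. At 168 h it was 7.14, 5.59, 5.49 and 5.08 with LX-A1656, 5.53, 5.33, 4.69 and 3.47 with LX-A2003, and 3.66, 3.03, 2.89 and 3.77 with LX-A3928. The library that stood apart in level, LX-A3928 replicate 3, was at 2.89, close to the rest of its group. No test was made of the ratios, since the genes were chosen with their changes known.

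**Figure D3:**
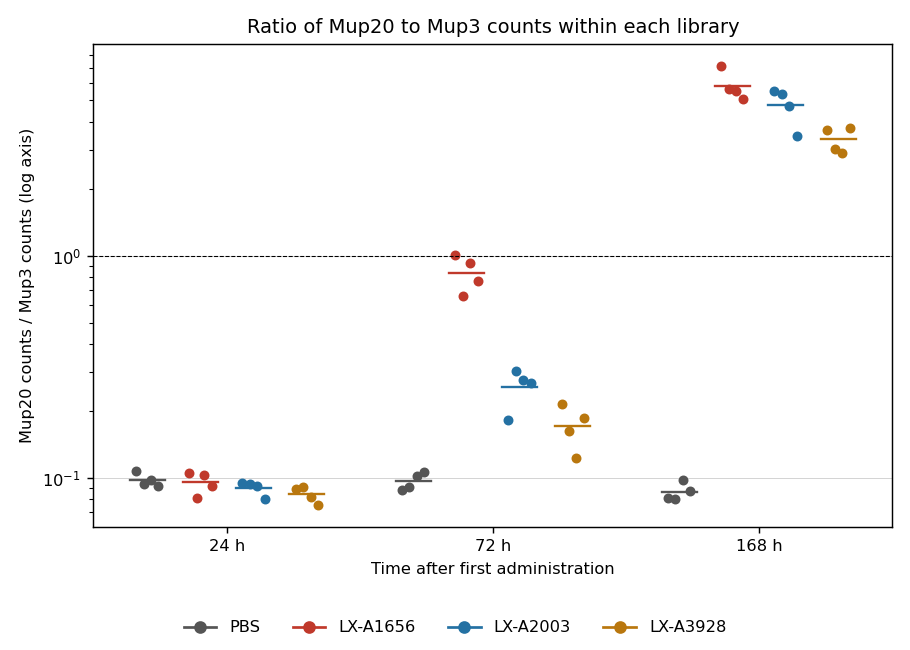
Mup20 counts divided by Mup3 counts in each of the 48 libraries, on a log axis, by time and treatment; points are libraries, lines group means and the dashed line equal counts, which need not be equal transcripts. PBS libraries lie at 0.0800 to 0.108 at all times, and the 12 oligonucleotide libraries of 168 h at 2.89 to 7.14.

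The following shares are of counts, not of transcripts, since amplicons can differ in yield. Of the counts of the 5 members together, Mup20 made up 7.34% to 9.63% in PBS livers. At 168 h it made up 83.5% to 87.7% with LX-A1656, 77.6% to 84.7% with LX-A2003 and 74.2% to 78.9% with LX-A3928. The 5 members together held 1.25% to 1.77% of all counts in PBS livers, and at 168 h 0.314% to 0.534% with LX-A1656 and 0.675% to 0.788% with LX-A2003. With LX-A3928 they held 0.968%, 0.896%, 3.00% and 0.797%, the 3.00% in replicate 3. For each 1000 Mup3 counts there were 2.87 to 13.9 Mup21 counts in PBS livers, and at 168 h 0 to 1.52 with LX-A1656, 0.686 to 1.31 with LX-A2003 and 2.70 to 5.07 with LX-A3928. Mup21 thus stood lower relative to Mup3 in every library of LX-A1656 and LX-A2003 at 168 h than in any PBS library.

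The oligonucleotides were also compared with each other at each time, in 9 pairs, and since no dose is stated the values cannot be said to refer to matched doses. At 24 h edgeR and DESeq2 each called 0 of 4 members in the 3 pairs. The share of all genes called at 24 h was 0.284% for LX-A2003 against LX-A1656, 2.90% for LX-A3928 against LX-A1656 and 0.150% for LX-A3928 against LX-A2003. At an unadjusted p under 0.05 the count was 0, 1 and 0 members.

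At 72 h LX-A2003 differed from LX-A1656 in 3 of 4 members, 2 higher and 1 lower, beside 18.0% of all genes in each direction. Mup21 was higher by 1.79 ± 0.355 and Mup20 lower by 1.06 ± 0.284 (adjusted p = 8.5e-05 and 0.00275). Mup4 was higher by 0.92 ± 0.342 (adjusted p = 0.0313), and Mup3 by 0.62 [95% interval 0.04 to 1.21], which missed the threshold (adjusted p = 0.0913). LX-A3928 differed from LX-A1656 in all 4 at 72 h, with Mup3, Mup21 and Mup4 higher and Mup20 lower, beside 20.4% and 20.1% of all genes. Between LX-A3928 and LX-A2003 edgeR and DESeq2 called 0 of 4 members at 72 h, none at an unadjusted p under 0.05, beside 0.718% of all genes. The difference there was 0.37 [-0.21 to 0.95] for Mup3 and -0.20 [-0.77 to 0.37] for Mup20. The Mup4 calls at 72 h against LX-A1656 were lost without some single libraries, named in the closing part, with adjusted p up to 0.117 for LX-A2003 and up to 0.113 for LX-A3928. They were also lost with library totals alone (adjusted p = 0.0718 and 0.0964) and with no filter (adjusted p = 0.0693 and 0.0570).

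At 168 h LX-A1656 had, of the 3 oligonucleotides, the lowest mean of Mup3, Mup20 and Mup21. LX-A2003 against LX-A1656 had 3 of 4 members higher and 0 lower, beside 18.3% and 13.8% of all genes. Mup3 was higher by 1.00 ± 0.292, Mup21 by 2.29 ± 0.743 and Mup20 by 0.74 ± 0.282 (adjusted p = 0.00724, 0.0155 and 0.0385). The difference for Mup4 was 0.02 [-0.94 to 0.99]. The Mup21 call was lost without LX-A1656 168 h replicate 2, the library with 0 counts, where the difference was 1.84 (adjusted p = 0.0658). The Mup20 call was lost without LX-A1656 168 h replicate 1, 2 or 3 or LX-A2003 168 h replicate 1, 2 or 3 (adjusted p = 0.0614 to 0.130).

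LX-A3928 against LX-A1656 at 168 h had all 4 members higher and 0 lower, beside 23.2% and 18.5% of all genes. The differences were 2.64 ± 0.307 for Mup3, 1.79 ± 0.289 for Mup20, 5.49 ± 0.586 for Mup21 and 2.18 ± 0.419 for Mup4. Without LX-A3928 replicate 3 they were 1.64, 0.95, 4.75 and 1.60, all still called. LX-A3928 against LX-A2003 at 168 h also had all 4 higher and 0 lower, beside 5.33% and 2.77% of all genes. For Mup20 the difference of 1.05 ± 0.284 (adjusted p = 0.0164) rested on replicate 3 of LX-A3928: the groups overlapped, and without that library it was 0.21 (adjusted p = 0.780). For Mup3, Mup21 and Mup4 the differences were 1.64, 3.20 and 2.16, and without replicate 3 they were 0.65, 2.45 and 1.57 (adjusted p = 0.0454, 0.000613 and 0.0294).

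The effect against PBS changed from 24 h to 168 h for all 4 tested members with each oligonucleotide. In this interaction Mup3, Mup21 and Mup4 were lower and Mup20 higher. The shares of all genes lower and higher were 23.8% and 23.2% with LX-A1656, 18.5% and 20.0% with LX-A2003, and 15.0% and 17.4% with LX-A3928. Within treatments, from 24 h to 72 h LX-A1656 had 1 member higher (Mup20) and 2 lower (Mup3 and Mup21), beside 21.7% and 21.5% of all genes. LX-A2003 and LX-A3928 each had 1 member higher (Mup20) and 0 lower, beside 2.47% and 3.26% of all genes with LX-A2003 and 1.26% and 2.15% with LX-A3928. From 72 h to 168 h all 4 members were lower with LX-A1656, beside 22.8% of all genes lower and 23.3% higher. Over the same interval LX-A2003 and LX-A3928 each had Mup20 higher and the other 3 lower, beside 27.9% and 23.5% of all genes with LX-A2003 and 23.9% and 17.9% with LX-A3928.

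Over the 48 libraries the log2 levels of Mup3 and Mup21 had a Pearson r of 0.970, Mup3 and Mup4 one of 0.925, and Mup21 and Mup4 one of 0.941. Mup20 was at -0.549 with Mup3, -0.541 with Mup21 and -0.456 with Mup4. Over the 12 PBS libraries alone r was 0.867 between Mup3 and Mup4, 0.671 between Mup3 and Mup20 and 0.228 between Mup3 and Mup21. These values are descriptions across libraries that share treatment, time and scaling. Among 7466 genes whose mean reached 10 CPM, the 5 with the highest r to Mup3 over the 48 libraries were Hsd11b1 (0.984), Ugt3a1, Sult2a8, Cyp2c29 and Fabp1 (0.971). For Mup21 they were Sult2a8 (0.982), Ces1e, Fabp1, Mug1 and Hsd3b5 (0.971). For Mup4 they were Ndufb9 (0.933), Apoa2, Sntg2, Fabp1 and Ugt3a2 (0.918). For Mup20 they were H2-T22 (0.928), Acot9, Hpx, 2010003K11Rik and Mmp12 (0.888). Over the PBS libraries alone these r values spread widely. For the 5 genes of each member they ran from 0.121 to 0.716 with Mup3 and from -0.144 to 0.937 with Mup21. With Mup4 they ran from 0.492 to 0.792, and with Mup20 from -0.0609 to 0.691, H2-T22 being at 0.176.

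RefSeq promoter sequences of GRCm38.p6 matched 3 of the 5 members, Mup3, Mup21 and Mup4, and Mup20 and Mup5 had no entry. The 3 with an entry all fell at 168 h. Their bases from 250 to 51 before the start are given below, 5′ to 3′ on the minus strand, because they show how alike the upstream sequences of the falling members are. Mup3 is at chr4:62087368-62087567, Mup21 at chr4:62150892-62151091 and Mup4 at chr4:59960718-59960917. Capitals mark AATCAAT, which is ATTGATT on the other strand and the only one of the 4 searched motifs found in all 3.
Mup3: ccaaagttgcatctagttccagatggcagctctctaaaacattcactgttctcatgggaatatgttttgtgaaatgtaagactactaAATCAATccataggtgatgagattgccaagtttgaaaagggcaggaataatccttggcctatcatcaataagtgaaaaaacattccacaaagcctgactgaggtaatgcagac
Mup21: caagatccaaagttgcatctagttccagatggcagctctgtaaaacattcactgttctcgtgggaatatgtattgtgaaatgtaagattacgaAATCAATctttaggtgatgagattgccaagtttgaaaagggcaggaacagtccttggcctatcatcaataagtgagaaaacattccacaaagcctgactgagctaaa
Mup4: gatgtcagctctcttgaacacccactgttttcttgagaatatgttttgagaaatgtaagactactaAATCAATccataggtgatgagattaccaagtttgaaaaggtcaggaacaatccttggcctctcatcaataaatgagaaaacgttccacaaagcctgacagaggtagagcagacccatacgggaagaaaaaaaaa

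With gaps counted as differences, Mup3 and Mup21 were identical at 182 of 206 aligned columns (88.3%). Mup3 and Mup4 were identical at 160 of 221 (72.4%), and Mup21 and Mup4 at 150 of 227 (66.1%). The stretches of 200 bases do not start at the same aligned base, so overhanging ends lower these shares. Where bases are paired the 3 are more alike than the shares say. ATTGATT, searched on both strands, occurred 1 time in each of the 3, and in 2.27% of 32851 promoters over the same stretch. The 3 belong to close paralogs and are alike around the motif, so they are not independent occurrences to set against that share. Mup20, the member that rose, had no promoter to compare. TGTTCT occurred in Mup3 and Mup21 and in 13.24% of promoters. TTCNNNGAA, held by 5.76% of promoters, and TTGCGCAA, held by 0.13%, were not among the letters of these windows. None of the 4 motifs overlapped another in the 3 promoters.

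In the same livers more genes of the growth hormone pathway fell than rose at 168 h. Of 9 tested, 5, 6 and 6 fell and 1, 0 and 0 rose, with medians of -1.02, -0.64 and -0.73. With scaling by library totals alone 5, 3 and 5 fell and 3, 0 and 1 rose. Under that scaling 2306, 1685 and 1461 of the 12672 genes were called lower and 6463, 5863 and 5140 higher. Of all genes 29.7%, 25.3% and 20.7% were called lower with TMM scaling, and 34.1%, 29.8% and 27.3% higher. Ghr, the growth hormone receptor gene, was at 616 to 778 CPM in PBS livers, and at 5.47 to 10.4 with LX-A1656, 25.9 to 59.8 with LX-A2003 and 33.0 to 92.3 with LX-A3928. It fell by 6.49 ± 0.302, 4.15 ± 0.268 and 3.66 ± 0.262. Without replicate 3 of LX-A3928 Ghr fell by 3.99 with that oligonucleotide. At 72 h, when Mup3 and Mup21 were called with LX-A1656 alone, Ghr had fallen by 4.04, 1.41 and 0.79. At 24 h its difference was -0.75, -0.30 and -0.22, none of them called. Igfals, a target of the hormone, fell by 5.32 with LX-A1656. Stat5b, which carries the signal to the nucleus, fell by 1.44.

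Among 11 transcription factor genes linked to Mup or sex-biased transcription, 8, 8 and 7 fell and 2, 0 and 0 rose. The share of all genes lower at 168 h was 29.7%, 25.3% and 20.7%. With library totals alone 4, 4 and 5 of the 11 fell and 3, 0 and 0 rose. Under that scaling 2306, 1685 and 1461 of the 12672 genes were called lower and 6463, 5863 and 5140 higher. Over all the alternatives run, 3 to 8 of the 11 fell with LX-A3928. Zhx2, a transcription factor that acts in hepatocytes, fell by 3.08, 1.29 and 1.29. Bcl6, a repressor of female-biased genes in male liver, fell by 1.76, 1.85 and 2.16. Ppargc1a, a coactivator of fasting metabolism, rose by 1.63 with LX-A1656 and fell by 1.23 and 1.18 with the other two. Of 12 genes known as higher in male liver, 12, 11 and 11 fell, with medians of -6.38, -3.24 and -1.82. Cyp7b1, an oxysterol hydroxylase, fell by 8.60, 5.60 and 3.99. Slco1a1, an uptake transporter, fell by 8.38, 3.35 and 0.95. Without replicate 3 of LX-A3928 it fell by 1.94 with that oligonucleotide. At 72 h 9, 0 and 1 of these 12 had fallen, beside 23.4% and 6.55% of all genes lower with LX-A1656 and LX-A2003. With LX-A3928 9.80% of all genes were called at 72 h in both directions together. Mup20 moved against the male-biased list and Mup3, Mup21 and Mup4 with it.

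**Figure D4:**
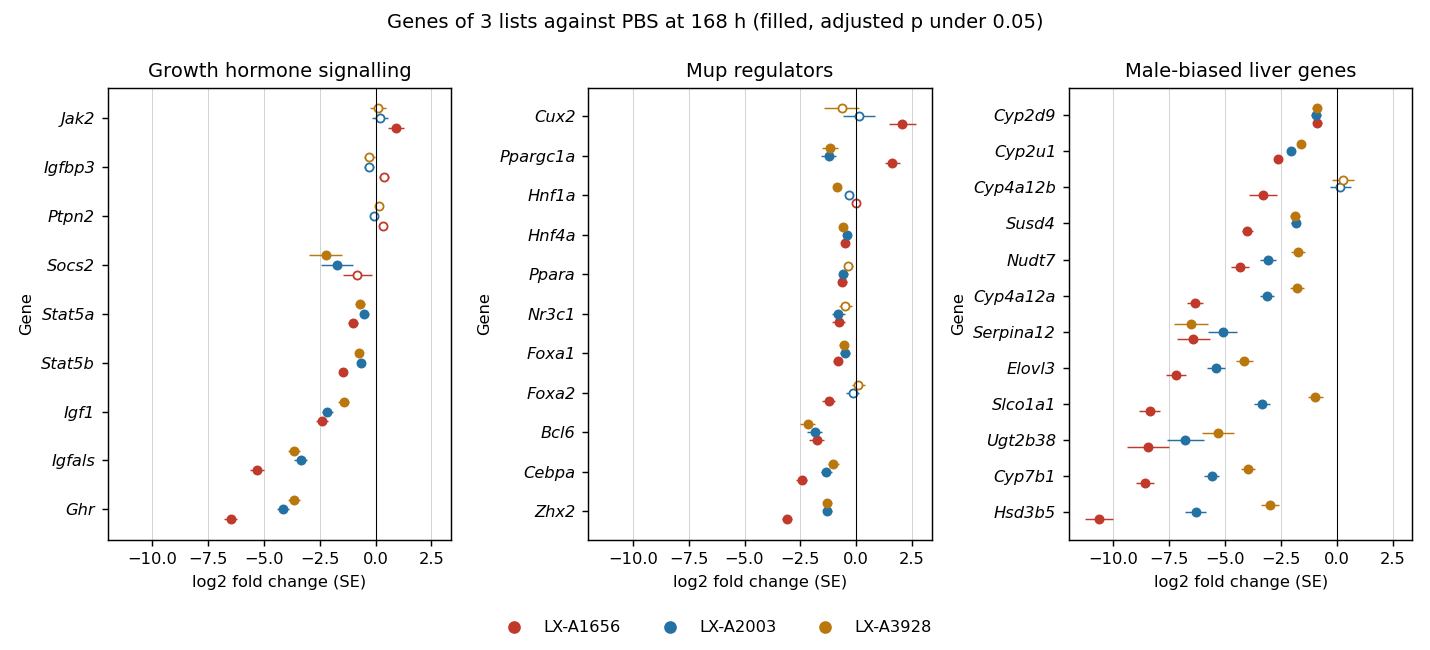
Log2 fold changes ± SE against PBS at 168 h of each tested gene of the growth hormone signalling, Mup regulator and male-biased lists, 1 row a gene and 1 colour an oligonucleotide; filled points have an adjusted p under 0.05. Ghr reaches -6.49 and Cyp7b1 -8.60 with LX-A1656.

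Other lipocalins and other secreted products of hepatocytes moved in both directions. At 168 h 29.7%, 25.3% and 20.7% of all genes were lower and 34.1%, 29.8% and 27.3% higher. With library totals alone 2306, 1685 and 1461 of the 12672 genes were called lower and 6463, 5863 and 5140 higher. Of 10 lipocalin genes outside the family, 2 rose with each oligonucleotide (Lcn2 and Apod, named after their values were seen), and 7, 8 and 6 fell, or 5, 4 and 3 with library totals alone. Lcn2, a carrier of iron siderophores, rose by 8.08, 5.33 and 3.98 at 168 h, and C8g, a complement subunit, fell by 3.14, 2.26 and 1.61. Of 13 abundant secreted hepatocyte proteins 11, 10 and 8 fell, or 5, 7 and 6 with library totals alone, where 2 rose with each oligonucleotide. Over all the alternatives run, 4 to 10 of the 13 fell with LX-A3928. Hpx, the haem carrier, was the 1 that rose with TMM scaling, by 0.76, 1.14 and 1.51. Hpx is also among the 5 genes most like Mup20.

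Markers of cell types moved with these results at 168 h, when 29.7%, 25.3% and 20.7% of all genes were lower. The share of all genes higher was 34.1%, 29.8% and 27.3%. Of 9 hepatocyte markers 7, 6 and 6 fell and 1, 0 and 0 rose. With library totals alone 5, 6 and 4 fell and 1, 2 and 1 rose, beside 2306, 1685 and 1461 of the 12672 genes lower. Higher under that scaling were 6463, 5863 and 5140 genes. Their summed level was 34506 to 48148 CPM with LX-A1656, 32755 to 40263 with LX-A2003 and 32399 to 87442 with LX-A3928, beside the PBS range above. All 6 monocyte and macrophage markers rose, from a summed 115 to 158 CPM in PBS livers to 695 to 1041, 367 to 468 and 253 to 575; without replicate 3 of LX-A3928, 5 rose with that oligonucleotide. Of 6 sinusoidal endothelial markers 5 fell with each oligonucleotide and 1 rose with LX-A3928, from a summed 315 to 325 CPM to 50.6 to 71.1, 105 to 134 and 129 to 177. In bulk liver fewer hepatocytes and less RNA per hepatocyte cannot be told apart, and the part of these markers in the Mup results was not tested. A list of markers of glands and skin that can express Mup genes had 4 genes measured. Of these, Prol1 and Krt14 were at 0 counts in all groups of 168 h. The other genes of the list were detected and held its whole summed level. It was 106 to 166 CPM in PBS livers and 26.2 to 211 CPM with the oligonucleotides, the 211 CPM in LX-A3928 replicate 3.

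Scaling by library totals alone raised the median change of all genes at 168 h to 0.56, 0.45 and 0.39, and at 72 h to 0.27 with LX-A1656. The share of called genes that were higher went from 53.5% to 73.7%, 54.0% to 77.7% and 56.9% to 77.9% at 168 h, and at 72 h from 51.4% to 66.6% with LX-A1656 and from 45.6% to 34.2% with LX-A3928. Every called Mup difference kept its direction under this scaling, under DESeq2 size factors and with the Mup rows left out of the library sizes.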

How the data were processed

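Mouse liver RNA was turned into amplicon libraries (Ion AmpliSeq Transcriptome Mouse kit), per the labels' protocols. The authors deposited raw read counts per gene; the sources used here do not state the aligner, counting tool, genome build, strand or amplicon positions. Columns were joined to groups by the library names in the labels, and replicates differed by more than sampling noise (chi-square per degree of freedom 5.75 to 215.5 between pairs).

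All 48 libraries entered 1 edgeR 4.0.16 model (R 4.3.3, limma 3.58.1) with 12 group means, TMM factors, filterByExpr over the groups (12672 genes, at least 99.891% of each library's counts) and the robust quasi-likelihood F test, with 36 residual degrees of freedom. There were 30 comparisons. The method was tested on simulated data with few changed genes and no library that stood apart, unlike the data of 168 h. DESeq2 1.42.0 and other alternatives are described in the closing part. Coding sequences were cut from GENCODE vM21 and aligned with mafft 7.526, and motifs were searched in RefSeq promoters. No set test was run.

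The members and 17 other gene lists were chosen with earlier results of these data known. From each list that is not of markers, up to 4 genes are named: those with the smallest p in LX-A1656 against PBS at 168 h with a group mean of at least 10 CPM. For likeness, the 5 genes with the highest Pearson r are named. Other genes named were chosen after their values were seen: Jak2, Cux2, Hpx, Apod and Cyp17a1.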

Additional observations from a re-analysis of the deposited data

Results flagged for a closer look

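In 9 of 60 groups of 4 libraries (5 Mup genes in 12 groups) the highest or lowest library stood far from the other 3 relative to the range of the group. Chance gives this in about 1 in 20 groups if values are normally distributed and groups are independent. The 5 genes were read in the same libraries, so that rate is only a rough guide here. In 5 of the 9 the library was LX-A3928 168 h replicate 3: Mup3 at 8367 CPM, Mup20 at 24214, Mup21 at 25.8, Mup4 at 10.6 and Mup6 at 35.9. The other 4 were Mup3 at 19435 CPM in PBS 168 h replicate 1, Mup3 at 18444 CPM in LX-A3928 72 h replicate 4, Mup20 at 6714 CPM in LX-A1656 72 h replicate 1 and Mup4 at 9.53 CPM in LX-A2003 72 h replicate 1.

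The effect against PBS differed between 168 h and 24 h for each Mup gene and oligonucleotide, in the edgeR test of that difference. For Mup3 the log2 effect changed by -4.89, -3.89 and -2.31 in the order LX-A1656, LX-A2003, LX-A3928 (adjusted p = 6.63e-13, 5.71e-10 and 2.49e-05). For Mup21 it changed by -8.88, -6.70 and -4.00 and for Mup4 by -3.71, -3.92 and -2.40. For Mup6 it changed by -2.41, -2.36 and -1.71 (adjusted p = 0.00185 with LX-A3928). For Mup20 it changed by 1.18, 2.00 and 3.08 (adjusted p = 0.0134, 9.2e-05 and 8.68e-08). Without LX-A3928 168 h replicate 3 the LX-A3928 values were -3.30 for Mup3, -4.74 for Mup21, -2.99 for Mup4, -2.53 for Mup6 and 2.23 for Mup20.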

How the results depend on the processing

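For 83 Mup differences, 1307 alternatives were run (other scalings, no filter, DESeq2, only the 8 libraries, the replicate block, each library left out). In 1252 the difference kept its direction and its side of the threshold, in 46 it lost the call, in 9 it gained one and in 0 it changed direction. With only the 8 libraries compared, members called were 1 for LX-A3928 at 24 h, 2 for LX-A2003 at 72 h and 1 for LX-A3928 at 72 h, where DESeq2 also gave 1; fewer libraries estimate the spread there. Leaving out 1 library gave 0 to 1 for LX-A2003 at 72 h, 0 to 1 for LX-A3928 at 72 h and 1 to 3 for LX-A2003 against LX-A1656 at 168 h (1 without LX-A1656 168 h replicate 2). For LX-A3928 at 72 h against 24 h the 1 call, Mup20, went to 0 with DESeq2 size factors, with no filter, with the replicate block (adjusted p = 0.058) and without 6 of 8 libraries (0 to 1); the cause was not tested. Mup4 at 72 h lost its call against LX-A1656 with library totals, with no filter and without LX-A1656 replicate 3 for both oligonucleotides, and also without LX-A1656 replicate 2 or LX-A2003 replicate 2, 3 or 4 for LX-A2003 and without LX-A3928 replicate 4 for LX-A3928. Mup4 in LX-A1656 against PBS at 72 h lost its call with library totals (adjusted p = 0.0608) and no filter (0.0618). A pairing of same-numbered replicates was not shown (correlations of their deviations from -0.350 to 0.396, in 0 of 9 comparisons all over 0.1). The labels do not state one, and this cutoff cannot settle it. The replicate block changed no other Mup call. Over all genes, only the 8 libraries gave 803, 754 and 1435 genes at 24 h against 363, 265 and 413, 2509 against 1524 for LX-A2003 at 72 h, and 3208 against 6087 for LX-A3928 at 168 h. DESeq2 gave 404 for LX-A2003 at 24 h. Leaving out 1 library gave as few as 239 (without PBS 24 h replicate 1), 135 to 174 (without PBS 24 h replicate 1, 2 or 4 or LX-A2003 24 h replicate 3 or 4) and 248 to 263 (without PBS 24 h replicate 1 or 2 or LX-A3928 24 h replicate 1 or 4). Library totals turned Ambp, a lipocalin gene, with LX-A2003 at 168 h from -0.39 to 0.024 (adjusted p = 0.872), and left 4 of the 8 Mup regulators lower with LX-A1656 and with LX-A2003, while male-biased counts stayed at 12, 11 and 11. Low counts limit the precision of Mup21 and Mup4 at 168 h, and Mup5 was too low to test.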

Other observations

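Genes known as higher in female liver, the counterpart of the male-biased list, moved in both directions at 168 h. Of 8 tested, 4 rose and 4 fell with LX-A1656, 4 fell with LX-A2003 and 3 with LX-A3928. The shares of all genes were 34.1%, 29.8% and 27.3% higher and 29.7%, 25.3% and 20.7% lower. Over all the alternatives run, 3 to 4 fell with LX-A3928. Replicate 3 of LX-A3928 summed to 2843 CPM for this list, against 481 to 848 in the rest of its group. Without it the LX-A3928 difference of Cyp3a44 went from -0.04 to -0.93 (adjusted p = 0.910 and 3.92e-05, edgeR). Cyp2b9, a cytochrome P450, fell by 5.12, 4.99 and 4.40, and Cyp2a4 rose by 2.24 with LX-A1656 (adjusted p = 0.00395, edgeR), where its differences of 1.08 and 0.86 with LX-A2003 and LX-A3928 missed the threshold. Cyp17a1 rose by 3.16 with LX-A1656. The 2 higher Mup regulators with LX-A1656 were Ppargc1a and Cux2, a factor of female liver, at 2.08, and the 1 higher growth hormone pathway gene was Jak2, the kinase of the receptor, at 0.92.

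Of 13 acute phase genes, 3, 3 and 5 rose and 3, 6 and 4 fell at 168 h, and without LX-A3928 168 h replicate 3 the last pair was 5 and 6. With library totals alone 6, 5 and 5 rose and 2, 4 and 2 fell, beside 6463, 5863 and 5140 of the 12672 genes higher. Lower under that scaling were 2306, 1685 and 1461 genes. Of all genes 34.1%, 29.8% and 27.3% were higher and 29.7%, 25.3% and 20.7% lower. Saa3, an inflammation-induced amyloid, rose by 1.63 with LX-A1656 and 1.69 with LX-A3928, and Itih4, a protease inhibitor heavy chain, fell by 2.23, 1.69 and 1.54. Of other marker lists at 168 h, read against the same shares of all genes, higher were 4, 1 and 3 of 4 neutrophil, 3, 3 and 4 of 5 Kupffer cell, 1, 2 and 1 of 3 lymphocyte, 2, 2 and 2 of 5 cholangiocyte and 5, 5 and 4 of 5 stellate cell markers. Lower were 1, 0 and 0 of the Kupffer cell and 1, 0 and 1 of the cholangiocyte markers.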
